A study of Mus musculus with 8 samples.

Results

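Excitatory neurons 8 is one of the clusters of excitatory neurons that the authors annotated by number rather than by region in single nucleus RNA sequencing (snRNAseq) of the mouse hippocampus. Its nuclei were taken as every nucleus that carries this name in the deposited cell annotation, and there were 1203 of them among 29425 nuclei. Mutant replicates 1 and 2 gave 581 and 369 of them, and control replicates 1 and 2 gave 162 and 91. The study compared hippocampi of adult mice in which *Wls* was inactivated by a Cre recombinase with those of control mice, by snRNAseq and by RNAseq of whole hippocampus (bulk RNAseq). There were 2 mutant and 2 control samples for each method, and each sample was made from both hippocampi of a single mouse labelled as male. Mutant mice were Gfap-Cre;Wls fl/-, with 1 floxed and 1 null allele of *Wls*. Control mice were Gfap-Cre;Wls fl/+, so they carried the same Cre transgene and 1 floxed allele, and kept 1 wild type allele. Cre was expressed from the Gfap promoter, and recombination was therefore limited to cells of the lineage in which this promoter was active.

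Excitatory neurons release glutamate, which they load into synaptic vesicles with vesicular transporters such as Slc17a7 (VGLUT1). In the cerebral cortex they are organised in layers, and each layer has characteristic transcription factors and projection targets. Neurons of the deepest layers send axons to the thalamus or within the cortex, and layer 6b holds neurons that derive from the embryonic subplate. Wls (Wntless) is the chaperone that carries Wnt ligands to the cell surface, so a cell without Wls makes Wnt proteins but does not secrete them.

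In the deposited data, the 4 snRNAseq libraries held between 26307081 and 76486132 unique molecular identifiers (UMIs, each a counted transcript). The median nucleus of excitatory neurons 8 had 3198 and 5902 UMIs in mutant replicates 1 and 2, and 4484 and 7142 in control replicates 1 and 2. Pairs of libraries shared between 8 and 21 cell barcodes, at most 0.309% of the smaller library. Dentate granule cells, which make up most neurons of the dentate gyrus, were 1.70% and 4.43% of the mutant nuclei and 36.1% and 27.9% of the control nuclei. Of the 1203 nuclei, 28 held transcripts of 3 or more marker genes of another class of cell. These nuclei were 1.55% and 3.25% of the cluster in the mutant samples and 2.47% and 3.30% in the control samples, and in 20 of the 28 the markers were those of oligodendrocytes. All levels below are UMIs per 1000000 (UPM), relative to all UMIs of the cluster in a sample, and samples are given in the order mutant 1, mutant 2, control 1 and control 2.

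The deposited label was first compared with the markers of excitatory neurons. *Slc17a7* was at 280, 329, 369 and 379 UPM, and in the controls it was higher in excitatory neurons 8 than in any of the other 16 cell types with at least 50 control nuclei. *Rbfox3*, which encodes the neuronal nuclear protein NeuN, was at 698, 938, 553 and 761 UPM. *Gad1* and *Gad2*, which encode the enzymes that make GABA in inhibitory neurons, did not exceed 10.2 and 8.33 UPM in any sample, against control means of 530 and 658 UPM in inhibitory neurons 12. The markers thus went with the label. A UMI of *Slc17a7* was found in 60.1%, 85.4%, 80.9% and 91.2% of the nuclei. In oligodendrocytes, which do not use this transporter, the share was between 8.22% and 13.4% at medians of 1727 to 2339 UMIs. After each nucleus of excitatory neurons 8 was thinned to 2000 UMIs, leaving out 99 shallower nuclei, the shares were 40.7%, 47.2%, 53.7% and 61.8%.

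The cluster was then placed among the other cell types by the genes of which the control level most exceeded that of every other type. Among 3844 genes with at least 50 UPM, the 30 with the highest ratio were taken as its defining genes. Because the clustering used these nuclei, the ratios are a description and were not tested. The lowest ratio among the 30 was that of *Ptchd1* and the next gene outside was *Dlg2*, both at 1.307.

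*Sdk2*, an immunoglobulin superfamily adhesion protein of synapses, led the list with 514, 633, 399 and 451 UPM, 4.00 times the control level of dentate granule cells, the next highest type. *Hs3st2*, a heparan sulfate sulfotransferase, was at 186, 177, 306 and 325 UPM, a control level 3.37 times that of excitatory neurons 13. *Cdh18*, a classical cadherin, was at 2267, 1922, 1740 and 1386 UPM and 2.74 times the next highest type. Each of these genes was above the next type in all 4 samples. *Oprm1*, the mu opioid receptor, was at 340, 376, 246 and 305 UPM, with a ratio of 2.62 to inhibitory neurons 12. *Nr4a2*, an orphan nuclear receptor found in the claustrum and in neurons of the deep cortex, was at 225, 280, 225 and 203 UPM with a ratio of 2.27.

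The next 10 genes had ratios between 1.61 and 2.19. They were *Sfmbt2*, a Polycomb group protein, the long noncoding *Gm28928*, the adhesion receptor *Adgra1*, *Thsd7b*, *Garnl3*, the plasma membrane calcium pump *Atp2b4*, *Teddm2*, the potassium leak channel *Kcnk9*, *Gm48956* and the RNA binding protein *Hnrnpll*. For 12 of the 30 genes the next highest type was excitatory neurons 13, for 5 it was excitatory neurons 7, and for 3 each it was mossy cells and excitatory neurons 10. Of the pyramidal cells of the hippocampus, CA1 was next for 2 genes and CA2 for 1.

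**Figure D1:**
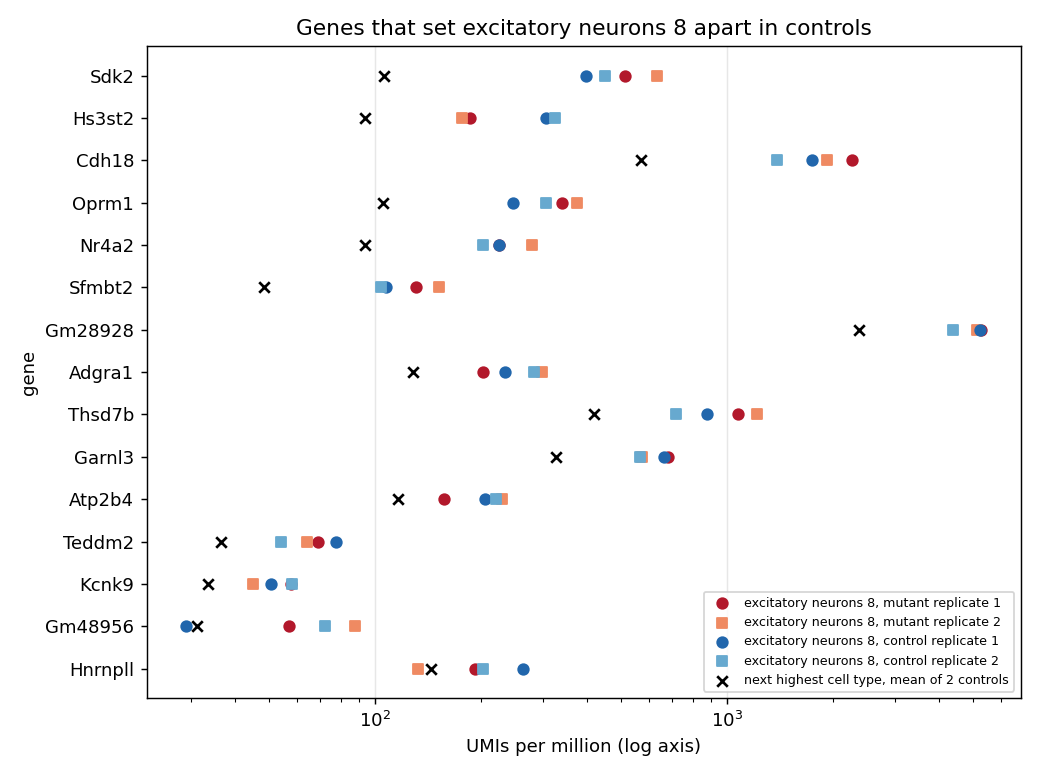
UPM (log axis) of the first 15 defining genes in each of the 4 samples of excitatory neurons 8, with the control mean of the next highest cell type as a cross. The control means of *Sdk2*, *Hs3st2* and *Cdh18* are 4.00, 3.37 and 2.74 times the cross, and *Gm48956* in control replicate 1 and *Hnrnpll* in mutant replicate 2 do not exceed it.

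Markers of cortical layers gave a second description. Among 17 cell types, the summed control level of 5 markers of layer 6 corticothalamic neurons was second highest in excitatory neurons 8, at 3646 UPM against 4799 in excitatory neurons 13. *Hs3st4*, another heparan sulfate sulfotransferase, made up most of this sum, with 3210, 3238, 2952 and 2967 UPM. It was found in between 98.9% and 100% of the nuclei against 4.11% to 7.37% of oligodendrocytes, which had fewer UMIs per nucleus. Pyramidal cells of the hippocampus also held *Hs3st4*, with a control mean of 1882 UPM in CA3 and with 1844 and 1767 UPM in the CA2 controls. *Tle4*, a Groucho corepressor of corticothalamic neurons, was at 633, 543, 409 and 514 UPM. *Foxp2*, a forkhead transcription factor of the same neurons, was at 187, 142, 227 and 151 UPM, the third highest control mean of the 17 types.

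Markers of layer 6b were present at lower levels. The summed control level of the 4 listed was 96.3 UPM and ranked 3 of the 17 types, against 236 in inhibitory neurons 14. *Ctgf*, a secreted matricellular protein that marks this layer, was at 54.7, 35.4, 59.7 and 45.8 UPM. Its control means were 0 and 1.55 UPM in excitatory neurons 10 and 13. The highest of the 17 types was 224 UPM in inhibitory neurons 14, and excitatory neurons 8 came second. *Cplx3*, a complexin, and *Nxph4*, a neurexophilin, had control means of 5.32 and 6.01 UPM, the highest of the 17 types but near the floor. In control replicates 1 and 2 they rested on 4 and 4 UMIs of *Cplx3* and 4 and 5 of *Nxph4*. *Moxd1*, also listed for this layer, had a control mean of 32.2 UPM and ranked 4 of the 17 types. It was at 112 UPM in inhibitory neurons 12 and 66.3 in inhibitory neurons 5. *Cux2*, which marks the upper layers, was lowest of the 17 types with a control mean of 1.33 UPM, against 371 in excitatory neurons 7. The layer 5 regulators *Fezf2* and *Bcl11b* had control means of 38.6 and 223 UPM. Both were higher in excitatory neurons 13, at 104 and 415. Of the other layer 5 markers listed with them, *Parm1* and *Pou3f1* went the other way. They were at 184 and 9.30 UPM, against 160 and 2.05 in excitatory neurons 13, *Pou3f1* from 7 and 7 control UMIs. *Fam84b*, at 0.694 UPM against 0.499, had 0 and 1 control UMIs, too few for a direction. The summed control level of these 5 markers was 455 UPM, against 682 in excitatory neurons 13. *Deptor*, listed for layers 4 and 5, had a control mean of 119 UPM, the highest of the 17 types. The sum of its list was 284 UPM, against 1663 in astrocytes. Of the markers listed with *Nr4a2* for the claustrum, *Car3* was at 0 in all 4 samples and *Synpr* had a control mean of 27.6 UPM. Of 5 markers listed for the subiculum, *Nts* had a control mean of 25.4 UPM, the highest of the 17 types, with CA1 next at 11.2. *Ly6g6e* was at 4.68 UPM, second to excitatory neurons 13 at 32.8. *Fn1* and *Slc17a6* were at 6.47 and 7.28 UPM, and *Gpr101* was at 0 in all 4 samples. The sum of this list was 43.9 UPM and ranked 7 of the 17 types. The region of origin was not tested.

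Among genes of neuronal activity, the summed level of 15 immediate early genes was 1039, 770, 1479 and 832 UPM, and its control mean was the highest of the 17 types. Much of it was *Homer1*, a postsynaptic scaffold, at 302, 133, 677 and 257 UPM. *Nr4a2*, at 225, 280, 225 and 203 UPM, was also among the 15. It is a defining gene, chosen for its high control level in this cluster, so the rank was in part fixed by that choice. The control samples differed from each other more than mutant replicate 1 differed from control replicate 2.

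The nuclei were not uniform. After the 28 nuclei with genes of another class were set aside, clustering of the other 1175 gave 6 subclusters, which are described by their leading genes and without a test. Subcluster 1, with 367 nuclei, had *Rorb*, a nuclear receptor of the middle layers, at 423 UPM, no other subcluster exceeding 87.5, and *Kcnc2*, a fast potassium channel, at 195 against 34.9. Subcluster 2, with 323 nuclei, was led by the Wnt antagonist *Dkk2* at 52.8 UPM against 4.35. Subcluster 3, with 149 nuclei, had *Rbm24*, an RNA binding protein, at 106 UPM and the histamine receptor *Hrh1* at 107, each between 2.42 and 2.84 times the next subcluster.

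The other subclusters were smaller. Subcluster 4, with 131 nuclei, was led by *Gm2516* at 508 UPM, 81.0 times the next subcluster. *C130073E24Rik* at 988 UPM and *Ror1*, a receptor for Wnt5a, at 196 UPM were also among its leading genes, at 49.7 and 31.0 times the next. It held the highest levels of all 4 layer 6b markers, *Ctgf* at 265, *Moxd1* at 186, *Cplx3* at 29.3 and *Nxph4* at 24.8 UPM, and is therefore called layer 6b-like. *Ctgf* did not exceed 24.1 UPM in the other 5. Subcluster 5, with 115 nuclei, had *Syt6*, a synaptotagmin of corticothalamic neurons, at 80.0 UPM against 19.2, and *Adgrd1*, an adhesion receptor, at 73.7 against 8.08. Subcluster 6, with 90 nuclei, was led by *Gm15261* at 243 UPM, followed by the glypican *Gpc6* at 1937 UPM and *Arhgap6* at 989, and held *Nts*, the neuropeptide neurotensin, at 137 UPM against 17.4. In it *Tshz2* and *Vwc2l*, which mark near-projecting neurons of layers 5 and 6, reached 3847 and 686 UPM.

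*Hs3st4* varied little over the subclusters, between 2846 and 3720 UPM. *Tle4* was lowest in subcluster 1 at 376 UPM and highest in subcluster 4 at 745. *Slc17a7* was between 220 and 377 UPM and *Gad1* between 6.25 and 11.8, so that each subcluster carried the excitatory marker. *Sdk2* was between 355 and 698 UPM. Other defining genes differed more between the subclusters. *Hs3st2* was highest in subcluster 1 at 367 UPM and lowest in subcluster 6 at 67.3. *Cdh18* was lowest in subcluster 1 at 607 UPM and highest in subcluster 3 at 4085.

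**Figure D2:**
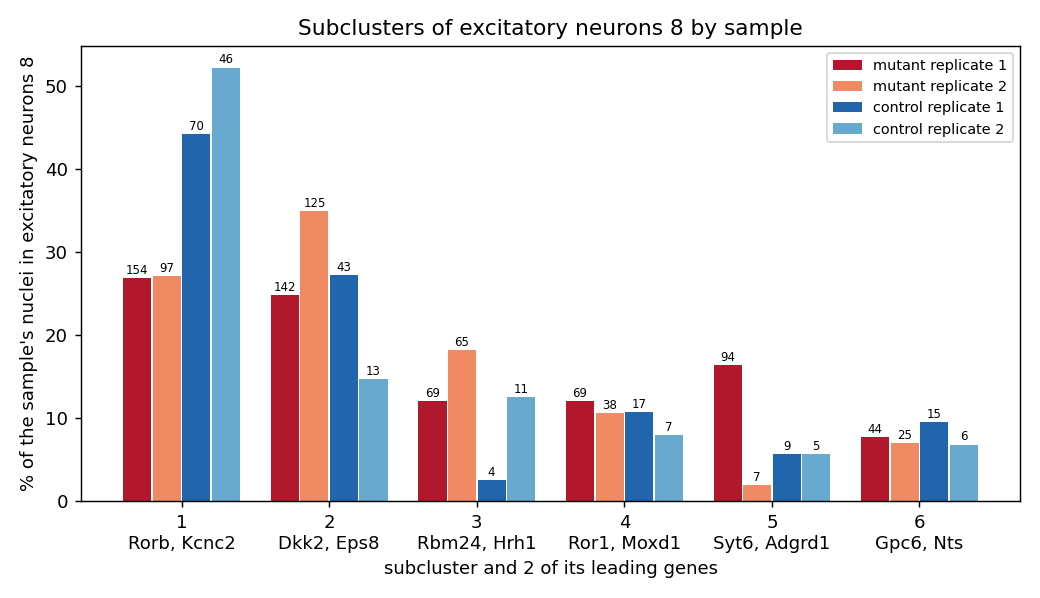
Percentage of a sample's nuclei of excitatory neurons 8 that fell in each of the 6 subclusters, with the number of nuclei above each bar and 2 leading genes under each subcluster. Subcluster 1 holds 26.9% and 27.2% of mutant and 44.3% and 52.3% of control nuclei, and 94 of the 115 nuclei of subcluster 5 are from mutant replicate 1.

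Subcluster 1 held 26.9%, 27.2%, 44.3% and 52.3% of the cluster's nuclei in the 4 samples. Subcluster 3 held 12.1%, 18.2%, 2.53% and 12.5%, and subcluster 5 held 16.4%, 1.96%, 5.70% and 5.68%. The layer 6b-like subcluster held 12.1%, 10.6%, 10.8% and 7.95%. The genotypes did not overlap in subcluster 1, and they overlapped in the other 3. These sizes were not tested, because genes that define the subclusters could themselves differ between the genotypes, and subcluster 5 was in large part from 1 library.

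*Wls*, the inactivated gene, was examined first for the effect of genotype. It was at 3.27, 1.70, 2.54 and 2.78 UPM, from 7, 4, 2 and 2 UMIs, and its control mean of 2.66 UPM was the lowest of the 17 cell types. The highest were 485 UPM in inhibitory neurons 14 and 334 in excitatory neurons 19. Mutant and control samples of excitatory neurons 8 overlapped. Over the summed UMIs of each genotype, 11 in mutants and 4 in controls, the ratio of mutant to control was 0.925, with an exact 95% interval of 0.274 to 3.98 that covers counting error only. With 3 of the 4 control UMIs in nuclei that held genes of another class, 11 and 1 UMIs were left without such nuclei. The gene was too low for the test across genes, and inactivation could not be seen in these nuclei at this depth.

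In some other neurons *Wls* was lower in both mutants than in both controls. In excitatory neurons 10 it was at 4.15, 3.33, 18.2 and 22.9 UPM, a log2 fold change of -2.42 (SE 0.49, FDR 0.207). In CA1 pyramidal cells it was at 3.94, 4.89, 16.5 and 14.8 UPM, a log2 fold change of -1.82 (SE 0.23, FDR 0.421). Neither change passed after adjustment over all genes. In CA2 and CA3 pyramidal cells and mossy cells the genotypes overlapped, and in dentate granule cells *Wls* was at 4.83, 5.55, 3.34 and 4.43 UPM, higher in both mutants. The difference in this effect between excitatory neurons 8 and 10 was 2.31 on the log2 scale (SE 0.96, FDR 0.708 by edgeR), and it did not pass the test.

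**Figure D3:**
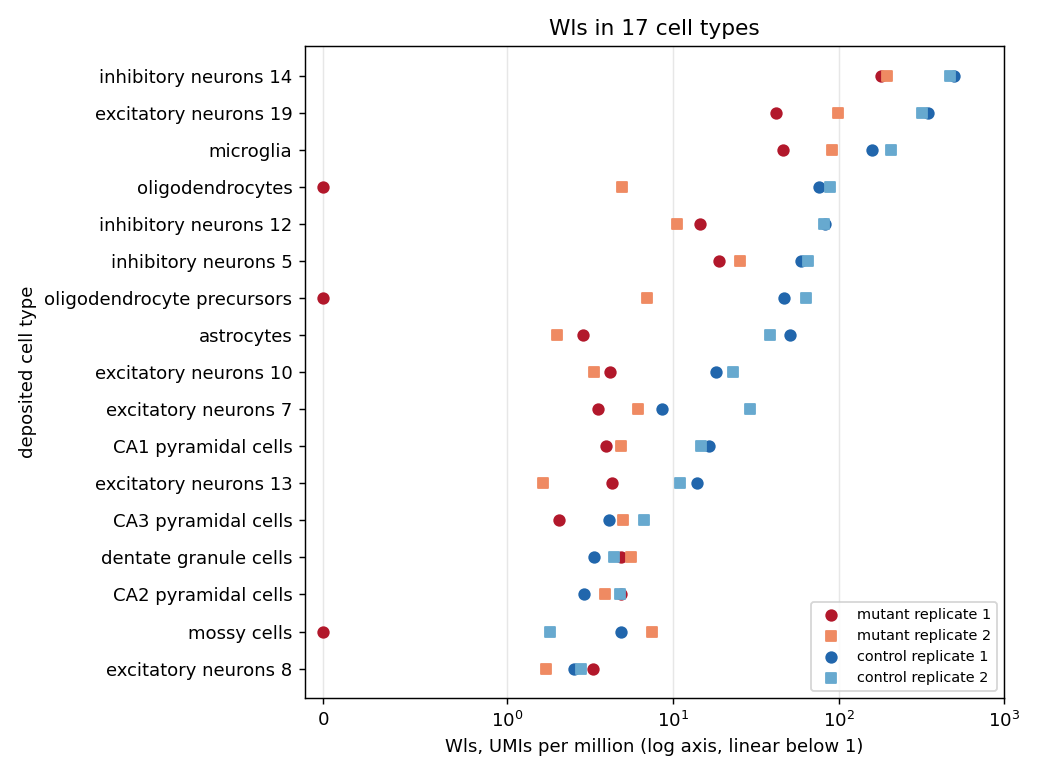
*Wls* in UPM (log axis, linear below 1) in each of the 4 samples for 17 deposited cell types, ordered by the control mean. In excitatory neurons 8, at the bottom, the 4 samples lie between 1.70 and 3.27 UPM and the genotypes overlap, whereas in excitatory neurons 10 and CA1 pyramidal cells both controls lie above both mutants.

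To ask which transcripts differed between the genotypes within the cluster, UMIs were summed per sample and compared in edgeR over 11030 genes, at a fold change (FC) above 2 and a false discovery rate (FDR) below 0.05. No gene passed, 0 of 11030, or 0%. Before adjustment 997 genes, 9.04%, had p below 0.05, and DESeq2 also called 0 genes. Without a filter on low counts 26 genes were higher and 24 lower. The count of 0 rested on all 4 samples. Leaving out control replicate 2, which had the fewest nuclei, gave 131 higher and 62 lower genes, leaving out mutant replicate 1 gave 44 and 35, leaving out control replicate 1 gave 7 and 36, and leaving out mutant replicate 2 gave 2 and 0. In the same design on simulated data, 24% of genes changed by 2-fold and 85.5% of those changed by 4-fold were recovered at FDR below 0.05. The FC threshold was not applied there, and with it the recovery could not have been higher. Changes of this size or smaller could therefore have been missed.

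The genes of lowest p with FC above 2 are given although none passed. *Unc5d*, a receptor for the axon guidance protein netrin, was at 232, 313, 96.5 and 143 UPM, a log2 fold change of 1.23 (SE 0.23, FDR 0.378). *Kcnn3*, a calcium-activated potassium channel, was at 67.3, 98.5, 24.1 and 44.4 UPM, a log2 fold change of 1.33 (SE 0.30, FDR 0.378). *Fbn1*, the extracellular matrix protein fibrillin, was at 39.3, 33.2, 10.2 and 13.9 UPM. For each of these, and for *Gm48742* and *Nckap5*, both mutant samples lay above both controls, as they did, above or below, for 39.6% of all genes tested.

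On the other side, *Bsg*, the membrane glycoprotein basigin, was at 63.1, 55.0, 138 and 197 UPM, a log2 fold change of -1.46 (SE 0.23, FDR 0.345). *Ubb*, which encodes polyubiquitin, was at 60.3, 35.0, 156 and 132 UPM, a log2 fold change of -1.56 (SE 0.27, FDR 0.345). *Pcsk1n*, an inhibitor of a prohormone convertase, was at 88.8, 80.6, 211 and 178 UPM, with a log2 fold change of -1.16. Both mutants were below both controls for these genes and for *Spcs1*, a signal peptidase subunit, and *Itm2b*, a membrane protein that is cleaved by furin. *Bsg* had log2 fold changes between -1.21 and -1.07 and *Ubb* between -1.39 and -1.30 in separate fits of excitatory neurons 7, 10 and 13 and CA1 pyramidal cells, and none of these passed. All cell types come from the same 4 mice.

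**Figure D4:**
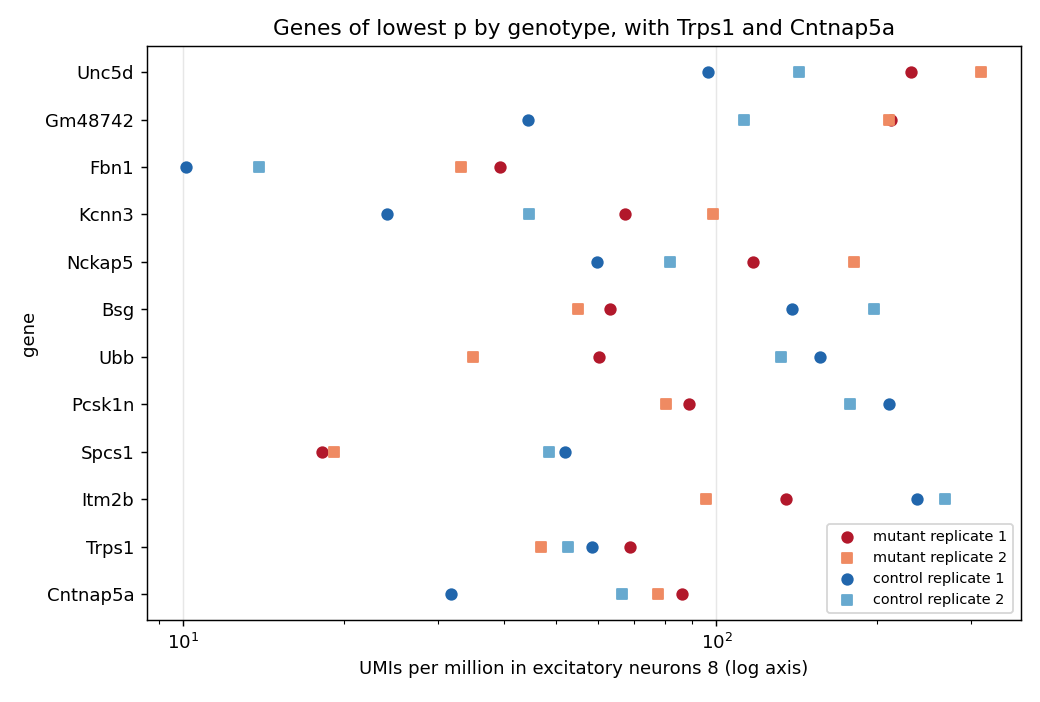
UPM (log axis) in each of the 4 samples of excitatory neurons 8 for the 5 genes of lowest p in each direction with FC above 2, and for *Trps1* and *Cntnap5a*. None of the 12 genes passed the thresholds, mutants and controls are separate for the first 10, and for *Trps1* they overlap.

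Some classes of abundant transcripts took different shares of the UMIs in the samples. Transcripts of 77 ribosomal protein genes were 0.151%, 0.171%, 0.213% and 0.222% of the cluster's UMIs. The 85 nuclear genes of the respiratory chain were 0.255%, 0.255%, 0.315% and 0.332%. Both mutants were below both controls in each. Of 66 ribosomal protein genes tested, 10 had a log2 fold change above 0, with a median of -0.42 against 0.007 over all genes, and 14 had p below 0.05, all lower, against 4.74% of all genes. Of 78 respiratory chain genes, 16 had p below 0.05, all lower, with a median of -0.36. None of either group passed the FDR. Mitochondrially encoded transcripts were 0.0401%, 0.0561%, 0.0433% and 0.0498%, and the genotypes overlapped. The part of nucleus preparation and RNA quality in these shares was not tested.

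The study singled out *Trps1*, a transcriptional repressor with GATA zinc fingers, and *Cntnap5a*, a neurexin-like adhesion protein, for a subset of excitatory neurons. In excitatory neurons 8 *Trps1* was at 68.7, 46.9, 58.4 and 52.8 UPM, a log2 fold change of 0.09 (SE 0.27, FDR 0.940), and the genotypes overlapped. *Cntnap5a* was at 86.0, 77.6, 31.7 and 66.6 UPM, a log2 fold change of 0.79 (SE 0.29, FDR 0.477). Both mutants were above both controls, but the gene did not pass unless control replicate 2 was left out, when the log2 fold change was 1.38 (FDR 0.0102). Without control replicate 1 it was 0.35. By subcluster, *Cntnap5a* was highest in subcluster 3 at 145 UPM, and without that subcluster the log2 fold change was 0.54. Its control mean in excitatory neurons 8 was 49.2 UPM, against 600 in excitatory neurons 10.

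Of the markers that the study used for excitatory neurons, *Nrgn*, a calmodulin binding protein, was at 83.2, 96.3, 176 and 125 UPM, a log2 fold change of -0.71 (SE 0.22, FDR 0.445). Separate fits of excitatory neurons 10, 13 and 7 and CA1 pyramidal cells gave -0.86, -0.77, -0.68 and -0.66 for it, and none passed. In oligodendrocytes it was at 71.7, 112, 229 and 228 UPM, and its highest control mean of the 17 types was that of dentate granule cells. Values for *Slc17a7*, *Nrn1*, *Fhl2* and *Neurod2* were between -0.31 and -0.03, and that for *Rbfox3* was 0.36. None passed, and both mutants were below both controls for *Slc17a7* and *Nrgn*.

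Groups of genes were then counted by function, with no set test. Over all genes 50.7% had a log2 fold change above 0, and 4.30% had p below 0.05 and were higher, while 4.74% had p below 0.05 and were lower. In the Wnt pathway, 19 of 47 genes were abundant enough to test, 13 were above 0 and 1 had p below 0.05. *Apc*, a scaffold of the beta-catenin destruction complex, was at 318, 324, 288 and 279 UPM, and *Rspo2*, a secreted amplifier of Wnt signalling, at 101, 77.2, 74.9 and 110. The kinase *Gsk3b* and the secreted *Dkk3* had log2 fold changes of -0.14 and -0.17. None of these genes passed.

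Among 34 genes of axon guidance, 22 were above 0, with a median of 0.27, and 7 had p below 0.05, all higher. They included *Unc5c*, a netrin receptor, at 375, 425, 256 and 265 UPM, a log2 fold change of 0.66 (FDR 0.378). Among 37 synaptic adhesion genes, 29 were above 0, with a median of 0.14, and 7 had p below 0.05, all higher. *Tenm2*, a teneurin, was at 5008, 5228, 4029 and 4088 UPM, a log2 fold change of 0.37. Among 19 cadherins and protocadherins 14 were above 0, and *Pcdh15* was at 953, 1136, 631 and 786 UPM, a log2 fold change of 0.60 (FDR 0.445). The mutants were higher in these examples and did not overlap with the controls, as 39.6% of all genes tested did not, in either direction. Of the most abundant members of these groups, *Epha5* was also higher without overlap, at 1274, 1259, 1136 and 1121 UPM. *Ptprd*, at 10132, 7617, 11483 and 7759 UPM, and *Pcdh9*, at 8040, 6175, 8329 and 5006, overlapped.

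Receptors and channels were counted in the same way. Of 23 glutamate receptors 19 were above 0, with a median of 0.20, and *Grm5*, a metabotropic receptor, was at 1614, 1939, 1258 and 1526 UPM. Of 13 GABA receptors 10 were above 0 and none had p below 0.05. Of 29 potassium channels 17 were above 0 and 4 had p below 0.05, all higher, and of 23 sodium, calcium and HCN channels 14 were above 0 and 5 had p below 0.05, 2 of them higher and 3 lower. The calcium channel *Cacna1c* was at 556, 634, 462 and 451 UPM, a log2 fold change of 0.42. Of 27 cortical transcription factors 16 were above 0, with a median of 0.12.

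Neuropeptides and activity genes were counted last. Of the neuropeptides, 3 of 12 could be tested. *Cck*, cholecystokinin, was at 87.0, 73.3, 137 and 140 UPM, a log2 fold change of -0.75 (FDR 0.400), and *Nts* was at 11.2, 10.7, 20.3 and 30.5. *Sst*, somatostatin, was at 20.1, 14.5, 11.4 and 11.1 UPM, a log2 fold change of 0.65 (FDR 0.691). Of 13 immediate early genes 5 were above 0, with a median of -0.08, and 3 had p below 0.05, 1 of them higher and 2 lower. *Homer1* had a log2 fold change of -1.06 (SE 0.42, FDR 0.492), with mutant replicate 1 above control replicate 2. No gene of any of the 11 groups passed the thresholds.

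The defining genes themselves did not pass between the genotypes either. All 30 were tested, and 19 were above 0, with a median of 0.09 and a range from -0.78 for *Ndfip2* to 0.66 for *Zmiz1os1*. The lowest FDR was 0.378, that of *Hs3st2*, with a log2 fold change of -0.75 (SE 0.18). The control levels also chose these genes, so their changes are a description.

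Whether the effect of genotype differed between excitatory neurons 8 and a similar cell type was tested within mice, by an interaction term with the mouse as a block. Against excitatory neurons 10 the effect differed for 8 of 11395 genes, 0.0702%, and all 8 were lower in excitatory neurons 8. *Hs3st4* in excitatory neurons 10 was at 133, 162, 36.4 and 43.9 UPM, higher in the mutants, while in excitatory neurons 8 it changed by 0.16 on the log2 scale, and the difference was -1.74 (SE 0.23, FDR 0.0122). *Trps1* in excitatory neurons 10 was at 484, 516, 124 and 30.5 UPM, and the difference was -2.64 (SE 0.40, FDR 0.0176). *Kcnc2* was at 108, 118, 31.9 and 19.1 UPM in excitatory neurons 10 and at 67.3, 80.1, 74.9 and 76.4 in excitatory neurons 8, a difference of -2.13 (SE 0.30, FDR 0.0154). Thus in excitatory neurons 10 both mutants were above both controls for each of these genes, whereas in excitatory neurons 8 the levels were similar in all samples. Higher levels in the mutants were not confined to excitatory neurons 10. In dentate granule cells *Hs3st4* was at 254, 235, 150 and 165 UPM and *Kcnc2* at 86.9, 25.7, 8.70 and 11.2, while *Trps1* overlapped. In CA3 pyramidal cells both mutants were below both controls for *Hs3st4* and *Kcnc2*.

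The other 5 genes were *Chst9*, a carbohydrate sulfotransferase, with a difference of -2.63 (FDR 0.0176), *Gm15261*, *Tmtc2*, *Arhgap6* and *Zeb1*, a zinc finger repressor, with a difference of -1.27 (FDR 0.0487). For *Tmtc2* the 2 types went in opposite directions, with log2 fold changes of -0.81 in excitatory neurons 8 and 0.89 in excitatory neurons 10, neither of which passed alone. The controls of excitatory neurons 10 held 74 and 40 nuclei. Without nuclei of more than 2 times their sample's median UMIs only *Kcnc2* passed, although the size of the differences changed little, as for *Trps1* with -2.65 (FDR 0.0794). Without control replicate 1 there were 25 higher and 56 lower genes, without control replicate 2 there were 22 and 17, and without mutant replicate 1 there were 4 and 13.

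**Figure D5:**
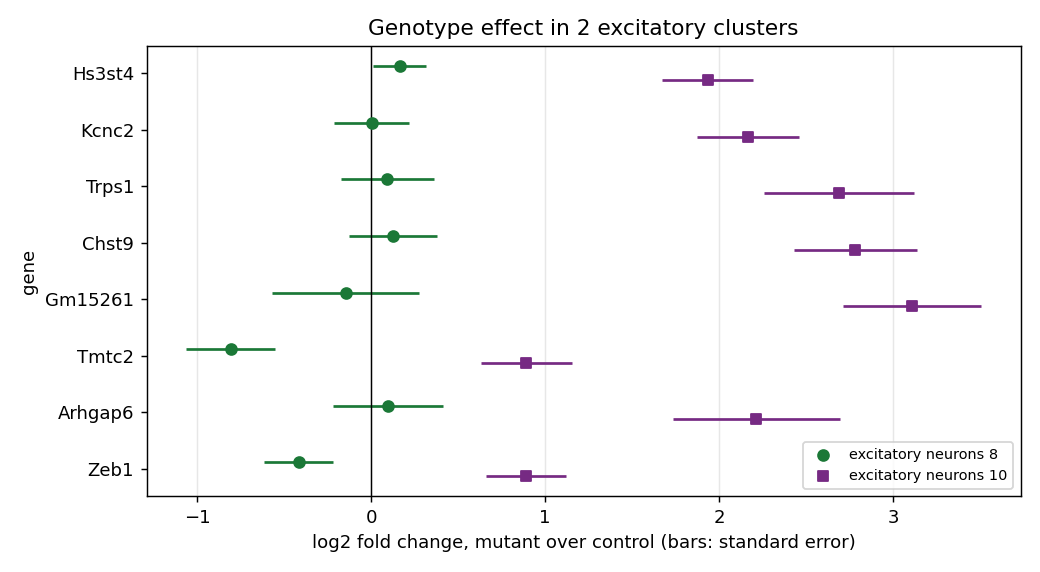
Log2 fold change of mutants over controls, with its standard error, for the 8 genes of which the effect of genotype differed between excitatory neurons 8 and 10. Excitatory neurons 8 lies between -0.81 and 0.16 and excitatory neurons 10 between 0.89 and 3.11.

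Against excitatory neurons 13, CA1 pyramidal cells and excitatory neurons 7 the effect differed for 0 of 10541, 0 of 15429 and 0 of 12249 genes by edgeR, 0% each, with 550, 891 and 500 genes at p below 0.05. These counts also rested on single samples. Without control replicate 2 there were 29 higher and 31 lower genes against excitatory neurons 13, without control replicate 1 there were 6 and 12, and without mutant replicate 1 there was 1 of each. Against CA1 pyramidal cells, there were 30 and 21 without mutant replicate 1, 21 and 28 without mutant replicate 2, 1 and 9 without control replicate 1, and 10 and 9 without control replicate 2. Against excitatory neurons 7 there were 11 and 9, 5 and 17, 0 and 4, and 2 and 2, in the same order of samples left out. The lowest FDR against CA1 pyramidal cells was 0.0655, for *Grb14*, an adaptor of the insulin receptor, with a difference of 1.26, for the noncoding *Rmst* with -1.36 and for *Hs3st2* with -1.22. *Grb14* was at 122, 129, 86.3 and 83.3 UPM in excitatory neurons 8 and at 28.4, 34.4, 50.2 and 46.4 in CA1 pyramidal cells. Against excitatory neurons 13 it was 0.150, for *Hs6st3*, and against excitatory neurons 7 it was 0.334.

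The share of the cluster among all nuclei was 10.95% (exact 95% interval 10.1 to 11.8, counting error only), 3.53% (3.18 to 3.90), 2.50% (2.14 to 2.91) and 1.27% (1.02 to 1.55). The mean was 7.24% ± 5.25 in mutants and 1.88% ± 0.88 in controls (SD, n = 2 each), a ratio of 3.84, and both mutants were above both controls. Mutant replicate 1 stood above the other 3 samples. By edgeR on numbers of nuclei the log2 fold change was 1.94 (SE 0.82, FDR 0.309 over 21 types), and the exact two-sided permutation test gave p = 0.33, the smallest that 2 against 2 samples allow. Without mutant replicate 1 the log2 fold change was 0.90.

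The share moves with the number of dentate granule nuclei, which were fewer in the mutant samples. Without dentate granule cells the shares were 11.1%, 3.69%, 3.92% and 1.76%, and the genotypes overlapped. Among the nuclei labelled excitatory neurons they were 31.6%, 28.3%, 23.7% and 21.0%, a ratio of 1.34, with a log2 fold change of 0.42 (SE 0.33, FDR 0.340). None of these differences passed the test.

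The defining genes were last looked up in bulk RNAseq, in which the nuclei were not chosen. The 4 bulk libraries held between 56002381 and 79576196 expected counts. In bulk tissue, fewer cells of a type and less RNA per cell cannot be told apart. Of the 30 genes 28 were abundant enough to test and none passed FC above 3 and FDR below 0.05, against 45 of 20687 genes, 0.218%, by edgeR. The median log2 fold change was 0.01, as over all genes, and 14 of the 28 were above 0, against 51.9% of all genes. Of these genes 15 had p below 0.05 before adjustment, against 18.8% of all genes, in both directions.

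Of the defining genes, only *Ano3* and *Pde1a* had FDR below 0.05 in bulk, and neither reached FC above 3. Their log2 fold changes were -0.62 (SE 0.06, FDR 0.0252) and 0.41 (SE 0.06, FDR 0.0488). The 5 defining genes with the largest bulk changes did not pass. *Ptchd1*, a patched domain membrane protein, was at 1.81, 0.67, 3.46 and 3.80 CPM (counts per 1000000), a log2 fold change of -1.54 (FDR 0.183), and *Zfpm2*, a cofactor of GATA factors, was at 25.9, 22.3, 41.2 and 39.1, a log2 fold change of -0.71 (FDR 0.0517). *Atp2b4* and *Kcnk9* had log2 fold changes of -0.81 and -0.74, and *Oprm1*, below 1 CPM in every library, of -0.83. Both mutants were below both controls for all of these except *Oprm1*. How many of all bulk genes were separated in this way was not counted, so the separation is a description only. Of the leading defining genes, *Sdk2* was at 25.0, 24.9, 31.4 and 31.5 CPM in bulk, lower in the mutants, whereas in the nuclei its log2 fold change was 0.47. Neither passed. In dentate granule cells, fewer in the mutants, control means were 475 UPM for *Ano3*, 653 for *Zfpm2* and 106 for *Sdk2*. The part of these cells in the bulk values was not tested.

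*Cntnap5a* was at 17.5, 16.1, 36.2 and 38.6 CPM in bulk, a log2 fold change of -1.13 (SE 0.09, FDR 0.0206) with the mutants lower, and did not reach FC above 3. In excitatory neurons 8 its log2 fold change was positive. Its highest control mean among cell types was 1051 UPM in dentate granule cells. *Wls* in bulk was at 3.61, 6.86, 13.3 and 13.1 CPM, a log2 fold change of -1.31 (FDR 0.117). *Xist*, the noncoding RNA that silences an X chromosome in female cells, was at 1.42, 230, 1.05 and 521 CPM, against the label of male mice for replicate 2 of each genotype, and its part in the bulk values was not tested.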

How the data were processed

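Nuclei were grouped by the deposited cell annotation, and samples by the genotype in their labels. For snRNAseq the authors deposited raw UMI counts per gene and nucleus, made with Cell Ranger 3.1.0 on mm10, and for bulk RNAseq they deposited expected counts per gene from RSEM 1.3.0 with Bowtie2 2.2.9, which were rounded here. Alignment, calling of cells, clustering and annotation are the authors', and doublets were not called again. The deposited TPM and normalised matrices were not used.

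UMI counts were summed per sample over the nuclei of a cell type, because the mouse is the replicate, and compared in edgeR 4.0.16 (R 4.3.3, filterByExpr, TMM, quasi-likelihood F test, Benjamini-Hochberg FDR over all genes). Bulk counts were compared in the same way. Differences in the effect of genotype were tested as the interaction of cell type and genotype, with the mouse as a block. Levels in UPM were scaled by total UMIs alone. Subclusters were made in scanpy 1.11.5 (2000 variable genes, 20 principal components, 15 neighbours, Leiden resolution 0.3, seed 1), from nuclei of all 4 samples without batch correction. Genes led a subcluster by their ratio to the next subcluster at 50 UPM or more. Alternatives were DESeq2 1.42.0, RLE, total UMIs alone, no filter on low counts, the replicate number as a block, other folds and numbers of genes, nuclei left out or thinned, and each sample left out. Leaving out nuclei with genes of another class or subclusters, excitatory neurons 7 as a partner, and samples left out of the interaction were chosen after seeing the data. With 2 samples a group, a sample left out leaves 1 in its group, which is assumed to vary like the others.

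The cluster and all gene lists were chosen with earlier results of these data known. The genes named are *Wls*, the study's genes of excitatory neurons, the first 15 of 30 defining genes, the 5 of lowest p with FC above 2 in each direction where none passed, the 5 of lowest FDR for each difference or fewer of them, members of the lists that are called or most abundant, and in bulk the 5 largest changes. Genes leading subclusters, *Unc5c*, *Pcdh15*, *Cck*, *Ror1*, *Xist* and others outside these rules were chosen after their values were seen.

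The fit was first tested on simulated data with 200 changed genes. A gene counted as recovered at FDR below 0.05, without the FC threshold, so the shares are upper limits for calls at both thresholds. In bulk, over 20687 genes, 69.5% of genes changed by 3-fold were recovered, and in excitatory neurons 8, over 11030 genes, 24% at 2-fold with 3 false calls and 85.5% at 4-fold with 18.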

Additional observations from a re-analysis of the deposited data

Results flagged for a closer look

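For 8 genes the effect of genotype differed between excitatory neurons 8 and excitatory neurons 10 by the interaction test in edgeR, with the mouse as a block. The differences, as the log2 fold change in excitatory neurons 8 minus that in excitatory neurons 10, were -1.74 for *Hs3st4*, -2.13 for *Kcnc2*, -2.64 for *Trps1*, -2.63 for *Chst9*, -3.26 for *Gm15261*, -1.69 for *Tmtc2*, -2.19 for *Arhgap6* and -1.27 for *Zeb1*. In 6 of them the log2 fold change in excitatory neurons 8 lay between -0.15 and 0.16 and that in excitatory neurons 10 was above 1. *Hs3st4*, *Kcnc2*, *Trps1* and *Chst9* passed with each of the 4 samples left out in turn. *Gm15261* did not pass without control replicate 1 (FDR 0.440), nor *Tmtc2* and *Arhgap6* without mutant replicate 2 (FDR 0.255 and 0.0864). *Zeb1* did not pass without mutant replicate 1, mutant replicate 2 or control replicate 2 (FDR 0.113, 0.290 and 0.0572). Without nuclei of high UMI totals 7 of the 8, all but *Kcnc2*, had FDR between 0.0794 and 0.113, and their differences were of much the same size, from -1.30 for *Zeb1* to -3.34 for *Gm15261*, with -2.65 for *Trps1*.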

How the results depend on the processing

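Without a filter on low counts 26 genes were higher and 24 lower in excitatory neurons 8, and differences in the effect of genotype (higher and lower in excitatory neurons 8) numbered 18 and 40 against excitatory neurons 10, 5 and 6 against 13, 41 and 30 against CA1 pyramidal cells and 12 and 13 against excitatory neurons 7. With the replicate number as a block, 73 genes were higher and 57 lower, and differences numbered 45 and 51, 0 and 0, 55 and 54, and 17 and 31 in the same order. These numbers pair no samples by the labels. The deviations of same-numbered samples from their group means correlated at 0.279 over 11030 genes in excitatory neurons 8 and at 0.0635 over 20687 genes in bulk. The block changed neither the call of the share, with a log2 fold change of 1.80, nor that of *Trps1*. RLE gave 1 and 3 differences from CA1 pyramidal cells. Without nuclei of high UMI totals there was 1 lower difference from excitatory neurons 10, 1 higher and 4 lower from CA1 pyramidal cells and 1 lower from excitatory neurons 7. Leaving out 1 sample gave between 2 and 131 higher and 0 and 62 lower genes. It gave 0 to 25 higher and 6 to 56 lower differences from excitatory neurons 10, 0 to 29 and 0 to 31 from excitatory neurons 13, 1 to 30 and 9 to 28 from CA1 pyramidal cells and 0 to 11 and 2 to 17 from excitatory neurons 7. *Cntnap5a* ranged from 0.35 to 1.38, and the log2 ratio of mean *Wls* levels from -0.64 to 0.30 around -0.09. For *Wls* no value was computed for thinned nuclei (2 and 0 UMIs), without nuclei of another class (11 and 1), or without either control sample (11 and 2 each), since 3 or fewer UMIs were left in a genotype. The median of the defining genes in bulk was -0.015 by DESeq2, -0.012 without the filter, 0.17 for 15 and -0.021 for 60 genes, and between -0.064 and 0.055 with a sample left out, when 0 or 1 of them was called. The causes were not tested. Single genes and values named in the text gave 321 other results on the same side of the thresholds, 127 that passed only under an alternative and 13 that no longer passed. Depth limits *Wls* (15 UMIs in all) and every subcluster of control replicate 2, with at most 46 nuclei.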
